A study of Mus musculus with 12 samples.

Results

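The genes described here encode amino acid transporters of 7 solute carrier (Slc) families in the mouse colon. They were chosen by symbol: a gene was taken if its name was Slc1a, Slc3a, Slc6a, Slc7a, Slc36a, Slc38a or Slc43a followed by a number. The rule found 61 of the 35688 genes in the table: 7 of the Slc1 family, 2 of Slc3, 19 of Slc6, 15 of Slc7, 4 of Slc36, 11 of Slc38 and 3 of Slc43. No expression value enters this rule, but it was chosen with earlier results of these data known. Slc6a20a and Slc6a20b, whose names end in a letter, fall outside it. RNA had been taken from the full-thickness colon of mice that were 2 weeks old, and all were labelled as lacking Il10, which encodes a cytokine that restrains inflammation. The colons of 5 mice labelled Il10-/- were set against those of 6 mice labelled Il10-/- Tnfr1-/-, which also lacked TNF receptor 1, the product of Tnfrsf1a. The series asks how loss of that receptor affects the early colitis of mice without Il10. There was no wild-type colon. The labels do not give the alleles, sex or litters, so p-values measure only the spread between these animals.

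Amino acid transporters move nutrients across the gut lining and feed every cell of the gut wall. In an absorptive cell, sodium- or proton-coupled carriers of the Slc1, Slc6, Slc36 and Slc38 families load amino acids into the cell, while Slc7 exchangers swap one amino acid for another. Many Slc7 proteins are light chains that reach the cell surface only when joined to a heavy chain, Slc3a1 or Slc3a2. Slc43 carriers work without an ion gradient.

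Values are summed abundances of a gene's transcripts on the scale the authors deposited, which is divided by transcript length but is not a count. The depth of each library is therefore unknown, and no counting interval can be given. Library sums lay between 804109 and 1378971. Tnfrsf1a checked the labels: its mean was 47.9 ± 18.5 over the 5 Il10-/- colons and 14.8 ± 2.34 over the 6 others (SD), without overlap. Il10 itself was listed at 15.3 ± 6.44 (SD, n = 5) and 5.14 ± 1.56 (SD, n = 6), so transcripts were assigned to both deleted genes. Summed epithelial markers lay between 7889 and 25279 in every sample. These are general epithelial genes, so they do not check that the tissue was colon. The makeup of the samples varied. Summed smooth muscle markers ranged from 184 to 3505 in Il10-/- and from 828 to 8010 in Il10-/- Tnfr1-/- colons, and all 10 had a higher mean in the latter. All 3 tested neutrophil markers had a lower mean there, with sums of 34.4 to 521 against 3.22 to 95.8. In such bulk samples, fewer cells of a type and less RNA per cell cannot be told apart.

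The colon expressed a small set of these transporters strongly, and many others stayed near 0. Of the 61 genes, 14 had a mean abundance over 10 across the 11 samples and 6 had one over 50. The leading gene was Slc6a14, a carrier of neutral and cationic amino acids, at a mean of 253.9. It was followed by Slc6a8, the creatine transporter, at 124.6, and by Slc38a6, a member of the sodium-coupled neutral carriers, at 92.2. The place of Slc6a8 rests on the Il10-/- colons, where its mean was 182.9. In Il10-/- Tnfr1-/- colons its mean of 76.1 was below those of Slc38a6 (81.8), Slc3a1 (77.6) and Slc3a2 (76.3). Both heavy chains came next, Slc3a1 at 74.6 and Slc3a2 at 69.6, and then the neutral amino acid exchanger Slc1a5 at 56.5. A gene was tested if its value was over 1 in at least 5 samples, and 30 members (49.2%) passed, against 38% of all genes. Of the 31 others, 24 were never over 1 in any colon and Slc7a12 was at 0 in every one. The remaining 7 reached the value 1 in too few samples, with highest values of 3.90 for Slc7a14, 3.20 for Slc38a4, 2.62 for Slc6a19, 2.19 for Slc7a3, 1.90 for Slc38a3, 1.74 for Slc6a15 and 1.17 for Slc7a2. Slc6a19 is the main carrier of neutral amino acids in the small intestine. The brain glutamate carriers Slc1a2 and Slc1a3 stayed under 1 in every colon.

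**Figure D1:**
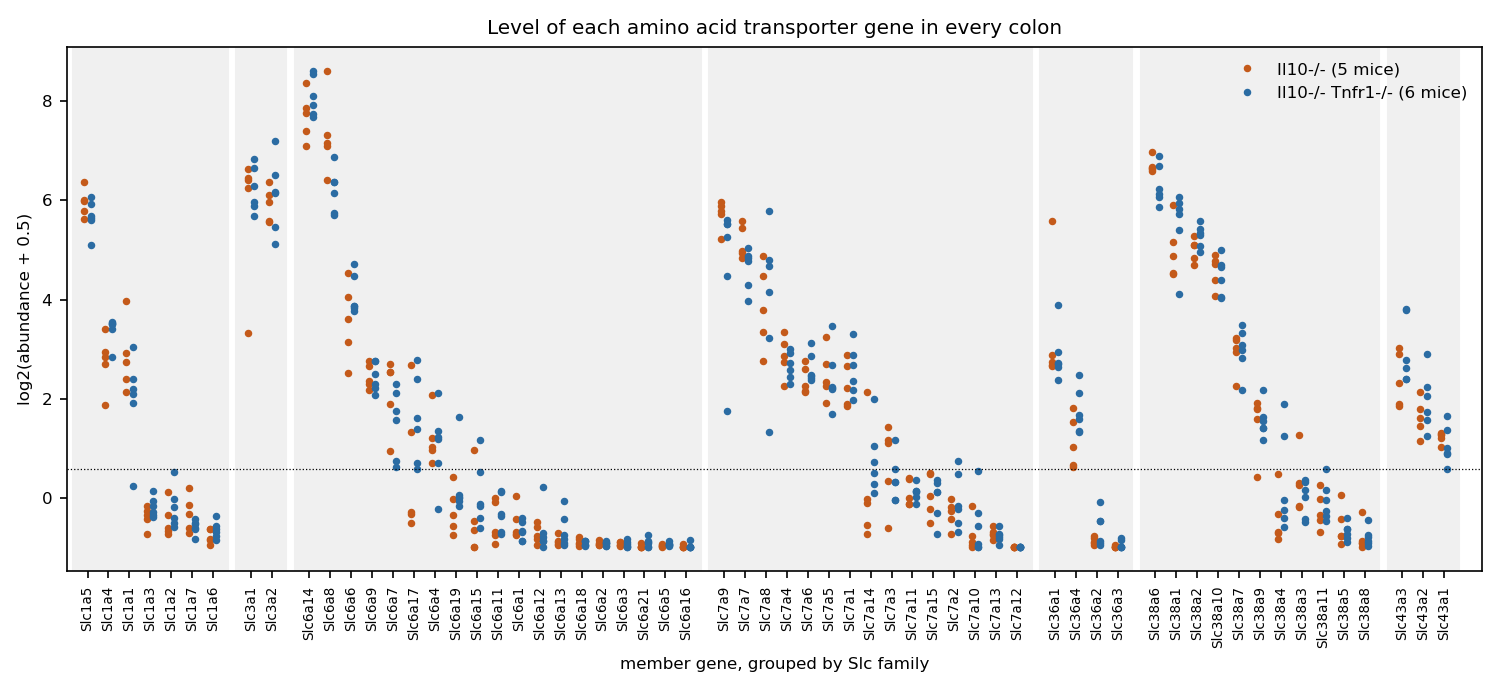
Abundance of each of the 61 transporter genes, as log2(abundance + 0.5), with 1 point per mouse for the 5 Il10-/- (orange) and 6 Il10-/- Tnfr1-/- (blue) colons, grouped by family and ordered by mean. The dotted line marks an abundance of 1; Slc6a14, Slc6a8 and Slc38a6 lead, and the right end of the Slc6 and Slc7 groups lies near an abundance of 0.

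Summed over all 61 genes, the abundance of the Il10-/- colons was 999.7 ± 122 (SD, n = 5) and that of the Il10-/- Tnfr1-/- colons 950.0 ± 144 (SD, n = 6), with overlapping ranges. The Slc6 family held 41.9% of the sum on average, Slc38 held 21.2%, Slc3 held 14.8%, Slc7 held 12.1%, Slc1 held 7.47%, Slc36 held 1.30% and Slc43 held 1.20%. Within the Slc6 family Slc6a14 made up 62.2% of the abundance, and within Slc1 the share of Slc1a5 was 78.9%. Slc7a9 led the Slc7 family with 35.8%, Slc36a1 its family with 80.3%, and Slc43a3 its family with 57.6%.

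No transporter passed the test between the genotypes. With limma on log2(abundance + 0.5) and Benjamini-Hochberg adjustment over all 13561 genes tested, 0 of the 30 members had an adjusted p under 0.05, and over all genes 0% did. The smallest adjusted p among members was 0.536. At an unadjusted p under 0.05 there were 3 members (10%), beside 8.34% of all genes, which is near that background. They were Slc6a8 and Slc7a7, with lower means in Il10-/- Tnfr1-/- (2 members, beside 3.6% of all genes in that direction), and Slc1a4, with a higher mean (1 member, beside 4.74%). In 0 of the 30 members were the 2 genotypes free of overlap, beside 0.575% of all genes. The log2 fold change, here always Il10-/- Tnfr1-/- minus Il10-/-, was above 0 in 16 members (53.3%, beside 55.5% of all genes) and below 0 in 14. Its median was 0.05 over members and 0.05 over all genes tested, and 14 members lay within 0.3 of 0. Under equal library totals the median over all genes moved to 0.19, so small differences of a member should be read relative to that shift. Fold changes on this scale understate the change of low genes.

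**Figure D2:**
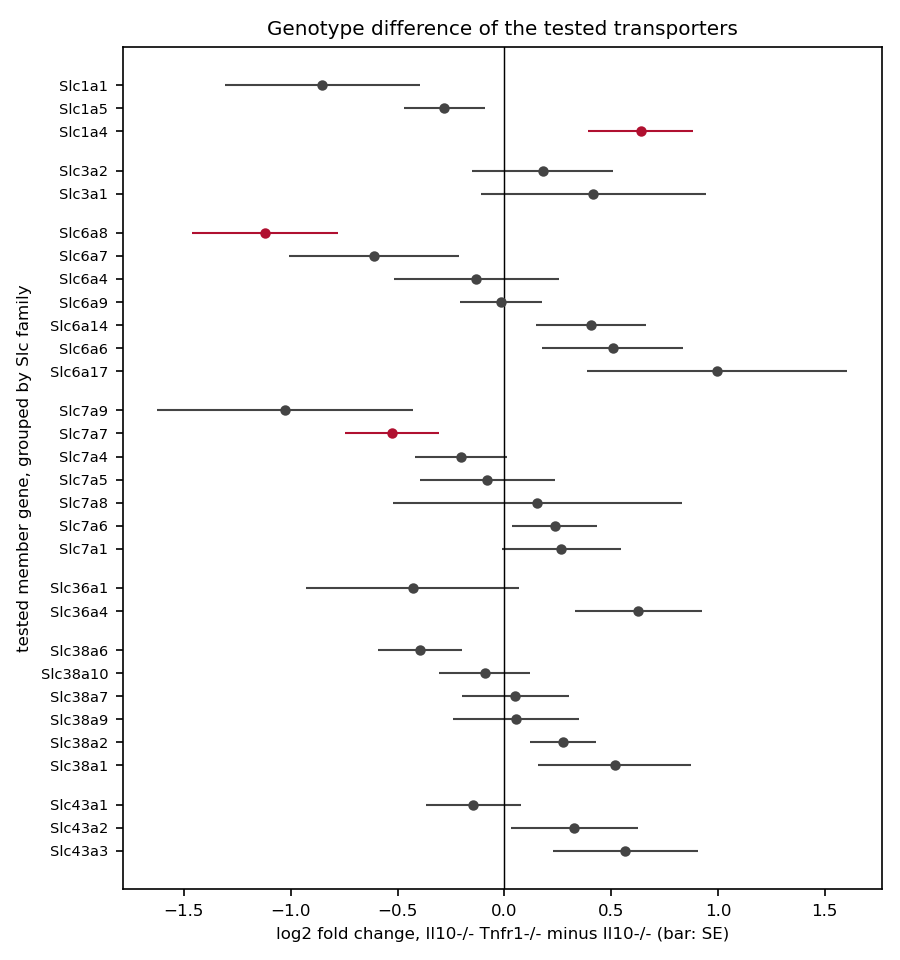
Log2 fold change, Il10-/- Tnfr1-/- minus Il10-/-, of the 30 tested transporters by family, with bars of 1 SE from limma. Red marks Slc1a4, Slc6a8 and Slc7a7, the 3 members with an unadjusted p under 0.05; none passed after adjustment.

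Slc6a8 showed the largest difference in log2 terms of any member. The gene spans positions 73673150 to 73682502 of chromosome X (mm10, plus strand), and its product carries creatine, an energy buffer made from amino acids. Its abundance in the Il10-/- colons was 391.2, 84.9, 136.7, 142.0 and 159.8 (replicates 1, 2, 3, 5 and 6). In the Il10-/- Tnfr1-/- colons it ran from 51.5 through a median of 76.1 to 116.5. Of the 6 double-deficient colons, 5 lay below the lowest Il10-/- value, and replicate 3, at 116.5, lay above it. The log2 fold change was -1.12 with an SE of 0.34 (limma p = 0.0066, adjusted p = 0.536; exact two-sided permutation p = 0.0108 over 462 assignments, where the smallest possible is 0.0022). Without Il10-/- replicate 1 the fold change was -0.80. Among the samples whose names start with 1, which are 3 Il10-/- and 2 Il10-/- Tnfr1-/- colons, the difference was -1.0, and the exact p of 0.2 is above the smallest that such a design allows, 0.1. The 2 Il10-/- colons with the highest Slc6a8, replicates 1 and 6, also had the highest summed neutrophil markers, 521 and 401. Ly6g alone gave 437.6 of the first sum and 171.5 of the second. The sums also hold 2 listed markers that were not tested. Replicate 2 had the lowest Slc6a8 and the lowest sum, 34.4. Among Il10-/- colons, though, the lowest S100a8 was in replicate 3 (7.74) and the lowest S100a9 in replicate 5 (1.84). In Il10-/- Tnfr1-/- colons the highest Slc6a8 was in replicate 3, with a sum of 20.9. The highest sum there, 95.8, was in replicate 2, with Slc6a8 at 82.8. The part of neutrophil content in the Slc6a8 difference was not tested.

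The transcripts of Slc6a8 did not share this difference evenly. In the GENCODE M21 annotation, protein-coding transcripts held 49.9% of the gene's abundance. A single transcript of the nonsense-mediated decay class, whose reading frame marks it for degradation, held 38.5%, and retained-intron transcripts held 11.5%. The decay-class transcript, ENSMUST00000114464.8, was 72.8, 29.2, 94.3, 65.1 and 119.2 in the Il10-/- colons and ran from 15.7 through 24.0 to 32.3 in the Il10-/- Tnfr1-/- colons. Only Il10-/- replicate 2 reached into the range of the other genotype (76.1 ± 33.6 against 24.6 ± 6.49, exact permutation p = 0.00649). In the authors' deposited table the same transcript had a p-value of 0.000255, rank 10 of the whole table, and a q-value of 0.684. That table holds 1 further per-sample column, not used here, so the authors' comparison may rest on another set of samples. The coding transcripts summed to 264.6, 42.2, 33.0, 48.7 and 30.6 in Il10-/- colons, so replicate 1 stood alone, and ran from 15.7 through 44.6 to 84.0 in Il10-/- Tnfr1-/- colons. Without replicate 1 the Il10-/- mean of the coding transcripts was 38.6, which is below the Il10-/- Tnfr1-/- mean of 44.2 ± 23.2. With coding transcripts alone the log2 fold change of Slc6a8 was -0.52 (SE 0.55). Short single-end reads assign transcripts that share most exons with uncertainty, and this uncertainty is not in the deposited values.

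**Figure D3:**
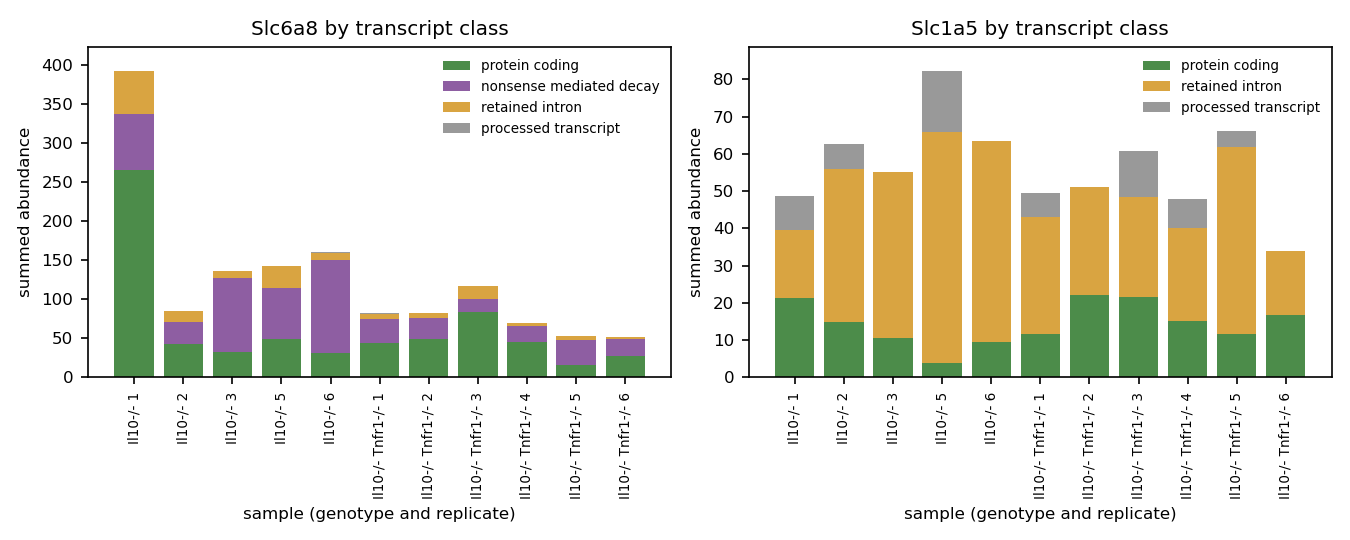
Abundance of Slc6a8 (left) and Slc1a5 (right) in each of the 11 colons, stacked by GENCODE M21 transcript class. The coding part of Slc6a8 is tallest in Il10-/- replicate 1 at 264.6. The decay-class part of Slc6a8 is between 29.2 and 119.2 in Il10-/- and between 15.7 and 32.3 in Il10-/- Tnfr1-/- colons. Retained-intron transcripts hold 64.2% of Slc1a5 over the 11 colons. In Il10-/- replicate 1 they are at 18.3, below the coding part of 21.2, and in Il10-/- Tnfr1-/- replicate 3 they are 26.7 of 60.7.

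The Slc1 family holds glutamate carriers and neutral amino acid exchangers. Slc1a4 (chromosome 11, 20302180 to 20332713, minus strand) exchanges alanine, serine, cysteine and other neutral amino acids. It was 3.16, 10.1, 6.62, 7.17 and 6.01 in the Il10-/- colons and ran from 6.63 through 10.8 to 11.1 in the Il10-/- Tnfr1-/- colons. All but 1 of the double-deficient colons lay between 10.2 and 11.1, above every Il10-/- value, and replicate 2 was the exception. The log2 fold change was 0.64 with an SE of 0.25 (limma p = 0.0241, adjusted p = 0.536; exact permutation p = 0.026), and among the names that start with 1 it was 0.46. Slc1a1, the epithelial carrier of glutamate and aspartate, was 15.2, 4.76, 3.91, 6.23 and 7.10 in Il10-/- and ran from 0.68 through 3.95 to 7.78 in Il10-/- Tnfr1-/- colons. Its fold change of -0.85 (SE 0.46, exact permutation p = 0.13) rested partly on the extremes, Il10-/- replicate 1 and Il10-/- Tnfr1-/- replicate 6. Without replicate 1 it was -0.50.

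Slc1a5, the glutamine carrier also known as ASCT2, was 48.6, 62.7, 55.0, 82.1 and 63.5 in the Il10-/- colons and ran from 33.8 through 50.3 to 66.3 in the others, with a fold change of -0.28 (SE 0.19). Its coding transcript held 25.5% of the abundance and the retained-intron transcript ENSMUST00000127401.7 held 58.1%. Counted over the coding transcript alone, the means were 12.0 ± 6.49 (SD, n = 5) and 16.5 ± 4.61 (SD, n = 6), and the fold change turned to 0.59. The direction for Slc1a5 thus depends on which transcripts are summed. Across the 30 tested members such a split was uncommon: 21 had over 90% of their abundance in coding transcripts, and 4 had under 50%, namely Slc6a8, Slc1a5, Slc6a17 and Slc38a9, which were singled out after their values were seen.

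The rest of the Slc6 family showed values that overlapped between the genotypes. Slc6a14 (chromosome X, 21714896 to 21742355, plus strand), a broad carrier known to be raised in inflamed gut, was 216.1, 332.5, 167.8, 232.9 and 136.8 in Il10-/- colons and ran from 205.1 through 260.4 to 391.7 in Il10-/- Tnfr1-/- colons. The fold change was 0.41 with an SE of 0.26 (exact permutation p = 0.158), and 2 of the 6 double-deficient colons lay above the highest Il10-/- value. Slc6a4, the serotonin transporter, was low at 1.93 ± 1.03 (SD, n = 5) and 1.84 ± 1.17 (SD, n = 6). Slc6a17, a synaptic vesicle carrier of neutral amino acids, had the largest positive fold change of the tested members, 1.00 (SE 0.61, exact permutation p = 0.184). It was 5.90 in Il10-/- replicate 3 and between 0.20 and 2.02 in the other Il10-/- colons. In those 5 colons replicate 3 also had the highest sum of enteric neuron markers, 706.7, against 22.0 to 70.3 in the others, and the part of neuron content in the Slc6a17 values was not tested. Slc6a17 turned to -0.25 with a smooth muscle score as a covariate.

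Of the heavy chains, Slc3a1 pairs with Slc7a9 to take up cystine and cationic amino acids, and Slc3a2, also known as CD98, pairs with several light chains. Slc3a1 (chromosome 17, 85028376 to 85064236, plus strand) was 9.46, 98.4, 75.3, 84.2 and 87.6 in Il10-/- colons and ran from 51.3 through 70.2 to 114.1 in Il10-/- Tnfr1-/- colons. Only Il10-/- replicate 1 stood low, and it decided the sign: the fold change was 0.42 (SE 0.53) with it and -0.21 without it. That same colon had the lowest sum of small intestine enterocyte markers, 38.5 against 253.4 to 359.1 in the other Il10-/- colons. It also had the lowest sum of absorptive colonocyte markers, 1676 against 4215 to 6052. Of the tested markers, Fabp6 in the first list and Car2, Car4, Slc26a3 and Slc5a8 in the second were not lowest there. The part of sample makeup in the Slc3a1 value was not tested. An exon of Slc3a1 overlaps Prepl on the other strand, and no source used here gives the strand setting of the authors. Slc3a2 was 62.5, 82.7, 68.3, 46.7 and 47.8 in Il10-/- and ran from 34.1 through 70.9 to 146.6 in Il10-/- Tnfr1-/- colons, with a fold change of 0.18 (SE 0.33).

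The partner Slc7a9 (chromosome 7, 35448796 to 35466036, plus strand) was 36.6, 62.5, 58.6, 54.4 and 52.4 in Il10-/- colons and ran from 2.85 through 41.8 to 48.1 in Il10-/- Tnfr1-/- colons. All but Il10-/- replicate 1 were above every double-deficient colon. The fold change was -1.03 with an SE of 0.60 (limma p = 0.112, exact permutation p = 0.108), and -0.44 without Il10-/- Tnfr1-/- replicate 6, which had the value 2.85. Among the names that start with 1 it was -0.16. Slc7a7, an exporter of arginine and lysine that pairs with Slc3a2, lies on chromosome 14 from 54369442 to 54417780 on the minus strand. It was 42.9, 30.1, 28.3, 31.1 and 47.3 in Il10-/- colons and ran from 15.2 through 27.5 to 32.3 in Il10-/- Tnfr1-/- colons. Its fold change was -0.52 (SE 0.22, limma p = 0.0343, adjusted p = 0.536; exact permutation p = 0.0606), and among the names that start with 1 it was -0.11. The Il10-/- colons with the highest Slc7a7 were again replicates 1 and 6, whose neutrophil marker sums were the highest. The lowest Slc7a7 of that genotype was in replicate 3, but the lowest sum, 34.4, in replicate 2. In Il10-/- Tnfr1-/- colons replicate 2 had both the highest Slc7a7 and the highest sum, 95.8. The lowest Slc7a7 there was in replicate 6, with a sum of 48.5, while the lowest sum, 3.22, was in replicate 4. The part of neutrophil content in the Slc7a7 difference was not tested. An exon of Slc7a7 overlaps Oxa1l on the other strand.

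The other light chains did not separate the genotypes. Slc7a5, the large neutral amino acid exchanger LAT1, was 5.41 ± 2.21 (SD, n = 5) and 5.26 ± 2.76 (SD, n = 6). Slc7a8, its relative LAT2 at the basolateral side of epithelia, was 9.71, 21.7, 28.8, 13.3 and 6.24 in Il10-/- colons and ran from 2.03 through 21.3 to 55.0 in Il10-/- Tnfr1-/- colons. Its fold change of 0.15 carried an SE of 0.68, the largest of the tested members. With a smooth muscle score as a covariate it became -0.78. Slc7a11, the cystine-glutamate exchanger, was not tested, at 0.41 to 0.82 in every colon. Of the cationic carriers that need no heavy chain, Slc7a1 was 4.62 ± 1.67 (SD, n = 5) and 5.71 ± 2.19 (SD, n = 6), and Slc7a2 reached 1.17 at most.

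Levels of a heavy chain and its light chain were compared across the 11 colons for 6 known pairs. Only Slc3a2 with Slc7a8 passed after adjustment over the 6 pairs. On the log2 scale Pearson's r was 0.90 (permutation p = 0.00025, adjusted 0.0015) and Spearman's rho was 0.85 (permutation p = 0.0016, adjusted 0.0095). Without Il10-/- Tnfr1-/- replicates 3 and 6, the colons farthest from the median of Slc3a2, r was 0.81. Within the 6 Il10-/- Tnfr1-/- colons r was 0.95 (exact permutation p = 0.0028). Only 5 colons have names that start with 1, under the 6 samples set as the least for a correlation, so no r is given within them. Among those 5 colons Il10-/- replicate 1 was lowest for both genes, but the highest colon differed: Slc3a2 was highest in Il10-/- Tnfr1-/- replicate 1 (91.5), and Slc7a8 in Il10-/- replicate 3 (28.8). The highest colon for both genes, Il10-/- Tnfr1-/- replicate 3, also had the highest smooth muscle sum, 8010, and the lowest for both was replicate 6. A part of sample makeup in this relation was not tested. Slc3a1 and Slc7a9 gave r = 0.13 (permutation p = 0.563) and rho = 0.35 (permutation p = 0.299). Their ratio, Slc3a1 as the base, ran from 0.0456 in Il10-/- Tnfr1-/- replicate 6 to 3.87 in Il10-/- replicate 1, and without Il10-/- replicate 1 and Il10-/- Tnfr1-/- replicate 3 r was 0.61. For Slc3a2 with Slc7a5, Slc7a6, Slc7a7 and Slc7a11, r was 0.36, 0.54, 0.30 and -0.36, and the adjusted permutation p-values of r were 0.411, 0.261, 0.450 and 0.411. Within the 6 Il10-/- Tnfr1-/- colons r of these pairs was 0.49, 0.51, 0.81 and -0.58. The value of 0.81, for Slc7a7, had an exact permutation p of 0.0403, not adjusted.

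**Figure D4:**
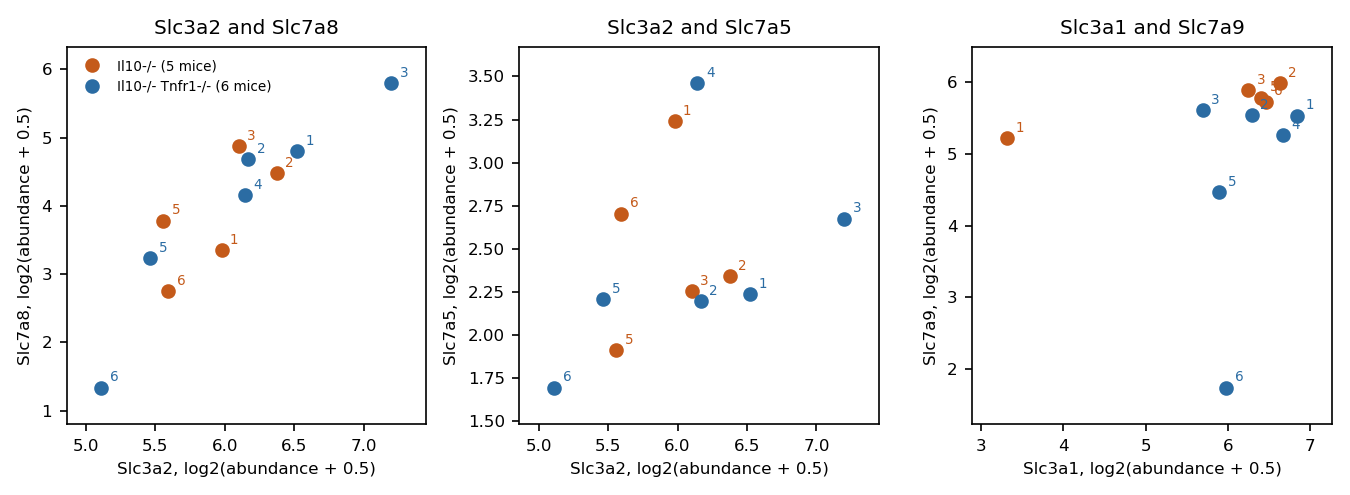
Heavy chain (horizontal) against light chain (vertical) as log2(abundance + 0.5), 1 point per colon, numbered by replicate, for Il10-/- (orange) and Il10-/- Tnfr1-/- (blue). Slc3a2 and Slc7a8 lie along a line (r = 0.90, 11 colons), while Il10-/- replicate 1 and Il10-/- Tnfr1-/- replicate 6 lie off the cluster of Slc3a1 and Slc7a9.

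Among the proton-coupled carriers, Slc36a1, known as PAT1 and found on lysosomes and the epithelial surface, was 47.3 in Il10-/- replicate 1 and 5.79, 6.90, 5.89 and 6.19 in the other Il10-/- colons. It ran from 4.67 through 6.04 to 14.3 in Il10-/- Tnfr1-/- colons. The fold change of -0.43 (SE 0.50) turned to 0.14 without replicate 1. Slc36a4 was 1.80 ± 0.86 (SD, n = 5) and 3.02 ± 1.19 (SD, n = 6), with a fold change of 0.63 (SE 0.30, exact permutation p = 0.0714) that was 0.00 among names that start with 1.

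In the Slc38 family of sodium-coupled neutral carriers, Slc38a6 was 100.1, 95.9, 99.3, 126.1 and 102.4 in Il10-/- colons. In Il10-/- Tnfr1-/- colons it ran from 57.6 through 72.4 to 119.0, with 4 of the 6 below every Il10-/- value. The fold change was -0.40 (SE 0.20, exact permutation p = 0.0671). The transcript marked as principal in the APPRIS annotation held only 3.3% of Slc38a6, against 57.6% for ENSMUST00000153941.7 and 33.2% for ENSMUST00000101313.3. Slc38a2, the carrier induced when amino acids are scarce, was the steadiest of the tested members, with a coefficient of variation of 18.1% over the 11 colons. It was 38.4, 34.0, 25.4, 33.7 and 28.2 in Il10-/- and ran from 30.8 through 39.3 to 47.5 in Il10-/- Tnfr1-/- colons. Its fold change was 0.27 (SE 0.16, exact permutation p = 0.0823), and -0.01 among names that start with 1. Of the facilitative carriers, Slc43a3, now known for purine base transport, was 5.11 ± 2.11 (SD, n = 5) and 8.09 ± 4.19 (SD, n = 6), with a fold change of 0.57 (SE 0.34). Its sign turned among names that start with 1, to -0.015, and with the smooth muscle covariate, to -0.031.

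**Figure D5:**
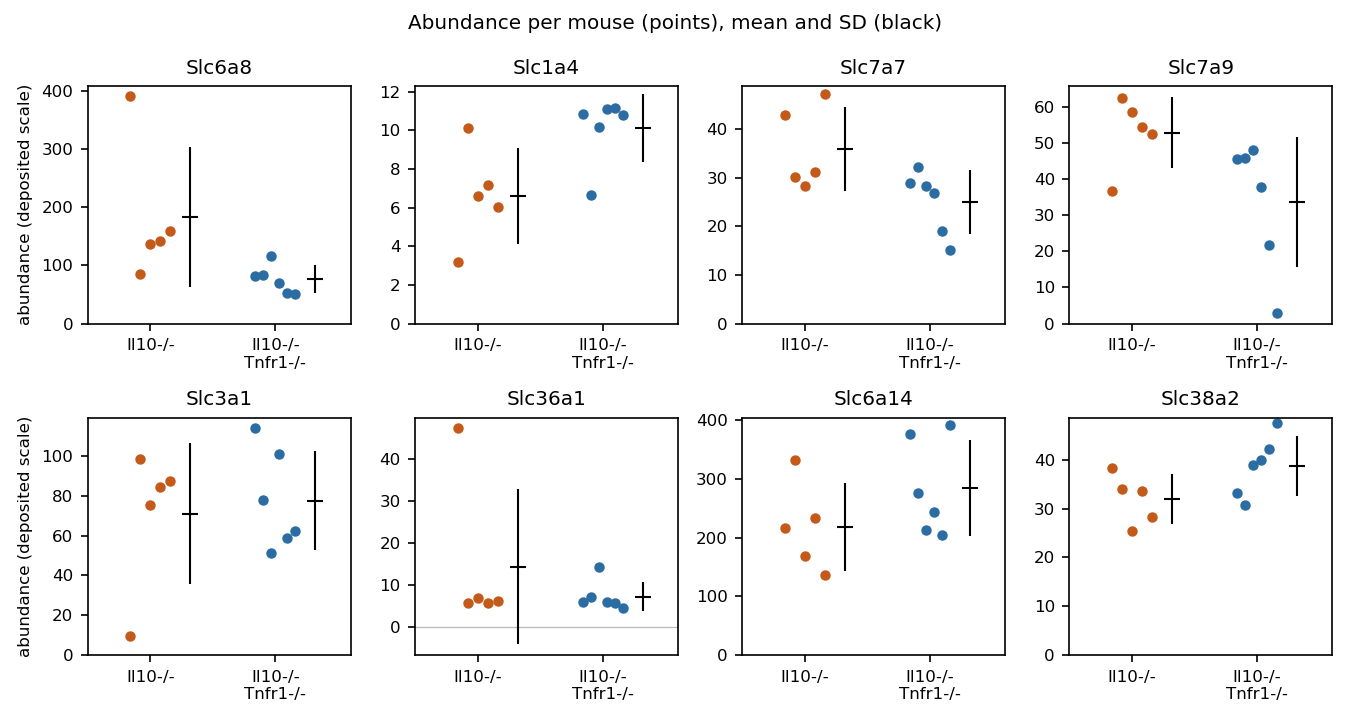
Abundance per mouse (points) with the mean and SD (black) for 8 transporters in the 5 Il10-/- and 6 Il10-/- Tnfr1-/- colons; each panel has its own linear axis. Slc6a8, Slc36a1 and Slc3a1 each have Il10-/- replicate 1 far from the other 4, Slc7a9 has Il10-/- Tnfr1-/- replicate 6 at 2.85, and the genotypes overlap in all 8 panels.

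By family, the median log2 fold change was -0.28 over 3 tested Slc1 genes, 0.30 over 2 Slc3 genes, -0.02 over 7 Slc6 genes and -0.08 over 7 Slc7 genes. It was 0.10 over 2 Slc36 genes, 0.05 over 6 Slc38 genes and 0.33 over 3 Slc43 genes, beside 0.05 over all genes tested. Those of Slc1, Slc3, Slc36 and Slc43 rest on 2 or 3 genes each. In every family but Slc1 and Slc43, the fold change of at least 1 tested gene turned its sign when 1 colon was left out. In those 2 families signs turned under other alternatives. Slc1a5 turned when only coding transcripts were summed, and Slc43a2 and Slc43a3 turned with the smooth muscle covariate, to -0.075 and -0.031.

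Extreme values were not spread evenly over the colons. Il10-/- Tnfr1-/- replicate 6 had the lowest value of all 11 colons in 14 of the 30 tested members, among them Slc7a9, Slc7a8, Slc7a7, Slc1a1, Slc1a5, Slc3a2 and Slc6a8, and the highest in 2, Slc6a14 and Slc38a2. The same colon had the highest sum of absorptive colonocyte markers, 39387 against 1676 to 6136 in the other 10, and of small intestine enterocyte markers, 1818 against 38.5 to 449.9. Car1 alone made up 32160 of the first sum, and Fabp2 alone 1640 of the second. Of the other tested enterocyte markers, Apoa4 (6.88) and Slc10a2 (56.7) were also highest in this colon, but Mep1a, Sis and Fabp6 were not. Il10-/- Tnfr1-/- replicates 3 and 4 had the highest value in 8 and 5 members and the highest smooth muscle sums, 8010 and 7144. Il10-/- replicate 1 was the highest in 4 and the lowest in 4. How far sample makeup accounts for the values of a transporter was not tested beyond the smooth muscle covariate. Under that covariate 9 of the 30 members had a positive fold change in place of 16. The median over all genes tested moved as well, from 0.05 to -0.04, so this count should be read beside that shift.

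Genes around the transporters were described from 6 lists, in which no gene passed after adjustment. The counts at an unadjusted p under 0.05 stand beside 8.34% of all genes tested in either direction, 4.74% higher and 3.6% lower. Counts of genes with a higher mean stand beside 55.5% of all genes tested. Of the targets of ATF4, the transcription factor of the amino acid response, 9 of 20 tested genes had a higher mean in Il10-/- Tnfr1-/- colons. The median was -0.02, with 1 gene at an unadjusted p under 0.05 and higher, Cth (0.82, SE 0.32), which makes cysteine, while Asns, asparagine synthetase, was at -0.42 (SE 0.23). Of the genes by which mTORC1 senses amino acids, 10 of 20 were higher, with a median of 0.01 and 4 at p under 0.05, all higher. These included Sesn3 (0.75, SE 0.22), a sestrin, and Rheb (0.72, SE 0.26), the GTPase that activates mTORC1. Among names that start with 1 the difference was 0.50 for Sesn3 and 0.14 for Rheb. For glutathione and cystine use, 5 of 11 were higher, with a median of -0.05, 1 gene past p under 0.05 in each direction, Gpx2 (-1.35, SE 0.39), an epithelial glutathione peroxidase, and Gclc (0.60, SE 0.26), which makes the glutathione precursor. Among names that start with 1 Gclc was at 0.12.

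For arginine and polyamine use, 8 of 13 genes were higher, with a median of 0.07. Nos2, the inducible nitric oxide synthase that consumes arginine, was at -1.75 (SE 0.57) and Oat, ornithine aminotransferase, at 1.13 (SE 0.47), among 1 higher and 2 lower genes at p under 0.05. For glutamine and glutamate use all 9 tested genes had a higher mean, beside 55.5% of all genes tested, with a median of 0.30. Glud1, glutamate dehydrogenase, was at 0.41 (SE 0.21), and at 0.12 among names that start with 1. Among those names the direction was not uniform, with Got1 at -0.04 and Got2 at -0.11. Of amino acid and peptide transporters outside the rule and their partners, 11 of 15 were higher, with a median of 0.15. Slc25a44, a mitochondrial carrier of branched-chain amino acids, was at 0.35 (SE 0.13) as the only one at p under 0.05, and Slc17a5, a lysosomal carrier, was at 0.38 (SE 0.18).

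The amino acid response acts through a DNA element with the core TGATGNAA, where N is any base, bound by ATF4 with C/EBP partners. The core was searched on both strands of RefSeq promoters on GRCm38.p6, each 300 bases long, from 250 before to 50 after the start. Promoters were given for 43 of the 61 members, and 4 of them (9.30%) held the core, as did 4.51% of all 27025 genes with a promoter. These were Slc1a4, Slc7a7, Slc7a11 and Slc6a21. Slc1a4 and Slc7a7, members with an unadjusted p under 0.05 and fold changes of opposite sign, are shown to let their elements be compared with those of Slc7a11, which was under 1 in every colon. The windows read 5′ to 3′ along the gene, with the core in capitals. They lie at chr11:20332690-20332737, chr14:54417918-54417965 and chr3:50443633-50443680, all on the minus strand.
Slc1a4: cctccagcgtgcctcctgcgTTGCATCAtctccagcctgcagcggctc
Slc7a7: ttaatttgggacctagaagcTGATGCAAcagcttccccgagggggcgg
Slc7a11: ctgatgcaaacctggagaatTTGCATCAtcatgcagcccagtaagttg
In Slc1a4 and Slc7a11 the core is on the other strand, so the capitals are its reverse complement, and in Slc7a7 it reads as listed. The Slc7a11 window holds a further copy in lower case at its left end. The core of Slc1a4 spans the RefSeq start, from -4 to 4, and that of Slc7a7 runs from -1 to 7 of a RefSeq start that lies upstream of the GENCODE M21 gene. The same Slc7a7 core lies at -243 to -236 of another RefSeq start, and a further one, TGATGAAA, at -141 to -134 of the first. A match of 8 letters is a description and says nothing about binding in these colons.

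The authors' deposited table tests each transcript. It gave a p-value for 104 of the 350 member transcripts, of which 12 (11.5%) were under 0.05, beside 6.83% of all 43192 transcripts with one. The smallest q-value among members in the authors' deposited table was 0.684. Of the 12, 4 belonged to Slc6a8, and the others to Slc6a17, Slc1a1, Slc36a4, Slc7a9, Slc7a7, Slc43a2, Slc1a4 and Slc43a1.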

How the data were processed

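Libraries were made from total RNA of dissected colon with a stranded mRNA kit and read as single-end reads, per the labels' protocols. Per the submitters' processing notes, CASAVA, kallisto and sleuth were used with the build mm10. Neither versions nor settings are given in the sources used here. Deposited abundances are a signal per transcript, scaled by the authors. They are not counts. Against the authors' mean natural log count, abundances scaled with a slope of 1.14 on log transcript length over 14752 transcripts, so length was divided out by the authors. A p-value and a q-value per transcript come from the authors' comparison, as the deposited columns are headed.

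Of 12 samples, 11 matched a column by title. Il10-/- replicate 4 matched none, and 1 per-sample column matched no title. Neither was used. After 866 repeated rows were dropped, transcripts were summed by gene. limma 3.58.1 (R 4.3.3; R package data.table, version 1.17.8), with trend and robust moderation, was fitted on the scale log2(abundance + 0.5) for genes over 1 in at least 5 samples, the size of the smaller group, with Benjamini-Hochberg adjustment over all genes. It was tested on simulated data. Exact permutation tests (two-sided, over 462 assignments), correlations (100000 permutations) and counts used Python 3.11.15, pandas 2.3.3, numpy 2.4.6 and scipy 1.17.1. GENCODE M21 gave coordinates and transcript classes for all 350 member transcripts, matched without version numbers.

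The members and lists were chosen with earlier results of these data known. Named genes are a panel of intestinal transporters, the 8 members of smallest p, the leading member of each family, the members just under the filter, and 2 genes of each pathway list, of which 1 is not reported here. Replicates are numbered in sample order. The first digit of a sample's name has no stated meaning. Names starting with 1 cover both genotypes, and those with 2, 3 or 4 only 1 genotype each.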

Additional observations from a re-analysis of the deposited data

Results flagged for a closer look

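Within each genotype, a transporter was looked at again where its highest or lowest colon stood apart from the others by more of the group's range on the log2 scale than Dixon's 95% limit allows. Of 60 groups, 7 did so, where chance gives about 3. Il10-/- replicate 1 gave 3 of them. Slc36a1 was 47.3 there and 5.79 to 6.90 in the other 4 Il10-/- colons. Slc3a1 was 9.46 there, against 75.3 to 98.4. Slc38a9, a lysosomal arginine sensor, was 0.837 there, against 2.53 to 3.29.

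Il10-/- Tnfr1-/- replicate 6 gave 2. Slc7a9 was 2.85 there and 21.7 to 48.1 in the other 5 colons of its genotype. Slc38a1, a glutamine carrier, was 16.8 there, against 41.7 to 66.6. Slc1a4 was 6.63 in Il10-/- Tnfr1-/- replicate 2, against 10.2 to 11.1. Slc38a6 was 126.1 in Il10-/- replicate 5, against 95.9 to 102.4. The causes were not tested.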

How the results depend on the processing

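No paired analysis was possible because the replicate numbers follow only the order of the samples. Over 25 alternatives, 693 of 750 fold changes of the 30 members kept their sign and 57 turned, and no member passed after adjustment under any of them; 11 members never turned. Leaving out 1 colon at a time gave 0 to 2 genes called over all genes (2 without Il10-/- replicate 2), 2 to 5 members at an unadjusted p under 0.05 (beside 3.52% to 18.2% of all genes), and 0 to 1 member whose groups did not overlap (beside 0.655% to 2.49%). Family medians then ran from -0.36 to -0.17 (Slc1), -0.01 to 0.46 (Slc3), -0.085 to 0.13 (Slc6), -0.20 to 0.06 (Slc7), -0.04 to 0.33 (Slc36), -0.06 to 0.15 (Slc38) and 0.14 to 0.47 (Slc43). The fold changes that turned ran from -0.63 to 0.14 (Slc36a1), -0.21 to 0.62 (Slc3a1), -0.040 to 0.38 (Slc3a2), -0.34 to 0.13 (Slc6a4), -0.29 to 0.11 (Slc7a5), -0.20 to 0.69 (Slc7a8), -0.11 to 0.21 (Slc38a7), -0.22 to 0.16 (Slc38a9) and -0.085 to 0.063 (Slc6a9).

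With the leading digit of the sample names as a covariate, or with only names that start with 1, 0 members were at p under 0.05 and the Slc36 median was -0.43. Both gave -0.0074 (Slc38a2), -0.015 (Slc43a3), -0.25 (Slc6a17), -0.10 (Slc6a6), -0.033 (Slc7a6), -0.051 (Slc7a1), 0.12 (Slc7a4) and 0.072 (Slc38a10). Among those names the groups of 5 members did not overlap, or 16.7% beside 14.6% of all genes. With a smooth muscle score as a covariate, 9 members were higher, beside a median of -0.04 over all genes, and the Slc7 median was -0.42. Values then turned to -0.031 (Slc43a3), -0.25 (Slc6a17), -0.075 (Slc43a2), -0.048 (Slc7a1), -0.27 (Slc3a2), -0.78 (Slc7a8) and -0.061 (Slc38a7). Equal library totals gave 0.050 (Slc38a10), 0.054 (Slc7a5) and 0.11 (Slc6a9), median-ratio size factors -0.0026 (Slc38a7), and quantile normalization -0.070 (Slc38a7), -0.17 (Slc38a9) and 1 gene called over all genes. Without the filter, 36 of 60 members were higher, beside a median of 0.02 over all genes, and the Slc1 median was 0.13.

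Of 2 alternatives chosen after seeing the data, coding transcripts only gave 0.59 for Slc1a5 and for the Slc1 median, and -0.045 for Slc38a7. Leaving out both Il10-/- replicate 1 and Il10-/- Tnfr1-/- replicate 6 gave 0 genes called, 5 members at p under 0.05 (16.7%, beside 19.7% of all genes), 1 member whose groups did not overlap (beside 3.01%), and medians of 0.32 (Slc6) and 0.25 (Slc7). Slc3a2 was then at 0.39, and single values turned to 0.24 (Slc36a1), -0.16 (Slc3a1), 0.075 (Slc38a10), 0.35 (Slc6a4), 0.25 (Slc7a5) and -0.19 (Slc38a9). The causes were not tested.

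Over all genes, 1131 were at an unadjusted p under 0.05. That count was 2450 without Il10-/- replicate 1, 1717 without Il10-/- replicate 2, 474 without Il10-/- replicate 6, 2644 without both colons named above, 243 with the digit as a covariate, 149 among names that start with 1, and 616 with the smooth muscle covariate. The share of them that was higher was 56.9%, but 75.2% under equal totals, 44.9% under median-ratio size factors and 41.3% under quantile normalization. The unknown depth of each library limits what can be said of the 31 untested members.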
